A study of Mus musculus with 8 samples.

Results

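The 10 genes described here are immediate early genes read on Affymetrix MG_U74Av2 arrays of mouse cumulus cells: Fos, Fosb, Fosl2, Jun, Junb and Atf3 of the AP-1 and ATF families, Egr1 and Egr2, the nuclear receptor Nr4a1, and Ier3. Every probe set whose platform gene symbol is exactly 1 of these names was taken, which gave 15 probe sets of the 12422 tested, for 10 genes of 8251. Of the genes, 6 have 1 probe set, 3 have 2 and Atf3 has 3. The rule for the probe sets uses no measured value, but the members were chosen with earlier results of these data known.

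Cumulus cells are the granulosa cells that surround the oocyte. The arrays came from EP2KO mice, which lack the prostaglandin E2 receptor EP2 (Ptger2-/-), and from WT mice, all female C57Bl/6 of 3 to 4 weeks. All animals first received 5 IU of pregnant mare serum gonadotropin (PMSG), which acts like FSH and grows follicles. The 0 h cells were taken 48 h later with no further hormone, and the others 3, 9 or 14 h after 5 IU of human chorionic gonadotropin (hCG), which acts like the LH surge that triggers ovulation. Each genotype and time has 1 array, 8 in all. Up to 9 h the complexes were let out of large follicles by needle, and the cells were stripped off with glass capillaries. At 14 h ovulated complexes came from the oviduct and the cells were freed with hyaluronidase, so the time after ovulation and the way of collection cannot be told apart. The number of animals behind an array is not given in the labels.

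Immediate early genes are switched on by signalling without the need for new protein. FOS and JUN family proteins pair through leucine zippers to form AP-1, and ATF3 belongs to the same zipper class. EGR1 and EGR2 are zinc finger factors that bind GC-rich sites. NR4A1 is an orphan nuclear receptor that acts without a known natural ligand and is controlled largely through its amount. IER3 is not a DNA-binding factor but a short-lived protein linked to cell survival and MAP kinase signalling. In the ovarian follicle the LH receptor raises cAMP and, through EGF-like ligands, activates MAP kinases. Both routes are known to reach the promoters of such genes: CREB through the cAMP response element (CRE), and serum response factor through the CArG box. Which signals reached the cumulus cells directly was not measured here. As 3 h was the first time sampled after hCG, the arrays cannot show a peak that came and went before it.

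The promoters below show which members carry letters of these routes. They are the 250 bases before the transcription start in RefSeq on GRCm38.p6, which held 9 of the 10 genes. Egr1 had no start there, so its promoter was not searched. Motifs were searched on both strands, and capitals mark the matches: the CRE core TGACG, read as CGTCA from the other strand, the CArG box, the EGR site GCGNGGGCG and the TATA box TATAAA. Nr4a1 lies at chr15:101266596-101266845 (plus strand), Egr2 at chr10:67537619-67537868 (plus strand, 1 of 5 starts), Fos at chr12:85473640-85473889 (plus strand), Junb at chr8:84978749-84978998 (minus strand), Fosb at chr7:19310046-19310295 (minus strand) and Ier3 at chr17:35821463-35821712 (plus strand).
Nr4a1: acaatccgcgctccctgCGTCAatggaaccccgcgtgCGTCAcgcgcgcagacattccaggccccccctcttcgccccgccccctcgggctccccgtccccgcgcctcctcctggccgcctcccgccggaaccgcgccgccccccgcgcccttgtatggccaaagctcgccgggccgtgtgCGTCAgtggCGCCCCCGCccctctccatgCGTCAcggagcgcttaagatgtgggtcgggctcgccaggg
Egr2: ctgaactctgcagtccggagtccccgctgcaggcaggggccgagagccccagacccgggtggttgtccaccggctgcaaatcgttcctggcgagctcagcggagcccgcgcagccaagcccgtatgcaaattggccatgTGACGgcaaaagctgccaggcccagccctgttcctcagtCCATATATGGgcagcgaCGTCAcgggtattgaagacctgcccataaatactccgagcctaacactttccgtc
Fos: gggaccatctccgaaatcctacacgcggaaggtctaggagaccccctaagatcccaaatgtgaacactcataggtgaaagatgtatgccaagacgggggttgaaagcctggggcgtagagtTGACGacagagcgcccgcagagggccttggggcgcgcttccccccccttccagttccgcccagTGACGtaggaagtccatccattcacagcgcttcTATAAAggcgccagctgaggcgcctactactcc
Junb: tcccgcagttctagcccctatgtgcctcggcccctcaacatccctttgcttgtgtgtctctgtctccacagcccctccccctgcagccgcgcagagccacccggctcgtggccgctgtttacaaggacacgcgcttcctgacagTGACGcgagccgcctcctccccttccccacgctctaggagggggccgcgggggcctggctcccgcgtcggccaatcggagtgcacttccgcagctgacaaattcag
Fosb: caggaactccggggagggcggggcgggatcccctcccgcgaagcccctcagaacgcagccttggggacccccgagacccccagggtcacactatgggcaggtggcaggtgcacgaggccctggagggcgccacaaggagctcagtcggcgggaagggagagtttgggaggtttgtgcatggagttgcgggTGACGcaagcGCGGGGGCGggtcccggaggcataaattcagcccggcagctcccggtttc
Ier3: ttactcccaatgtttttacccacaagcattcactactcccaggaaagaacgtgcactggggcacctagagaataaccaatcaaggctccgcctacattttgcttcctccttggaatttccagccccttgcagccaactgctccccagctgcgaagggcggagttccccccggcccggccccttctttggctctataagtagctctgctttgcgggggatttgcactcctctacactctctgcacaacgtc
The CRE core stood in the promoters of 6 of the 9 genes, Atf3, Egr2, Fos, Fosb, Junb and Nr4a1, and in 17.8% of all 32851 promoters of the same length. A gene was counted if any of its starts had a match, while the share counts single promoters. Egr2 had 5 starts, not all with the core. Nr4a1 held 4 cores, a number reached by 0.137% of promoters. The Egr2 promoter shown and that of Fos held 2 each, and 2 or more stood in 3.9% of promoters. Of the 9 genes searched, only Egr2 had a CArG box in this window (1.47% of promoters), and Fosb, Fosl2 and Nr4a1 had an EGR site (4.7%). None of the 9 held the whole palindrome TGACGTCA, the AP-1 site TGANTCA or the NR4A site AAAGGTCA in this window, and Jun and Ier3 held none of the motifs searched, although Ier3 showed the largest change of the members. These are letters in a window and not measured binding.

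The values are RMA signals on the log2 scale, so a difference of 1 is a doubling. Changes with time were tested with limma over all 12422 probe sets, with time and genotype as terms and 2 arrays per time (1 EP2KO and 1 WT), and p-values were adjusted by Benjamini-Hochberg with a threshold of 0.05. Array medians lay between 7.79 and 7.89. Of the member probe sets 9 were above the median of every array, Atf3 104155_f_at was above it on 6 arrays, and 5 were above it on 1 array or none. These 5 are the second probe sets of Fos (161716_at) and Egr1 (161802_i_at), Fosl2 103546_at, and Atf3 104156_r_at and 161645_r_at.

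At 3 h 7 of the 15 member probe sets were higher than at 0 h, against 17.4% of all probe sets, and 2 were lower, against 25.4%. The higher ones are Ier3, both of Junb, Nr4a1, Egr1 98579_at, Egr2 and Jun, and the lower ones Fos 161716_at and Egr1 161802_i_at. A rise of at least 1 log2 unit was called for 5 of the 15, against 4.59%, and at 9 h and 14 h for 4 and 8, against 3.16% and 4.63%. At 9 h 8 were higher than at 0 h, against 10.9% of all, and none was lower, against 12.1%. At 14 h 9 were higher than at 0 h, against 13.5%, and none was lower, against 15.2%. The median change from 0 h over the 15 probe sets was 0.51, 0.56 and 1.05 at 3, 9 and 14 h, while over all probe sets it was −0.14, −0.08 and −0.06. The count of 8 at 9 h was 4 without either 0 h array, and the count of 9 at 14 h was 5 without the EP2KO 0 h array.

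**Figure D1:**
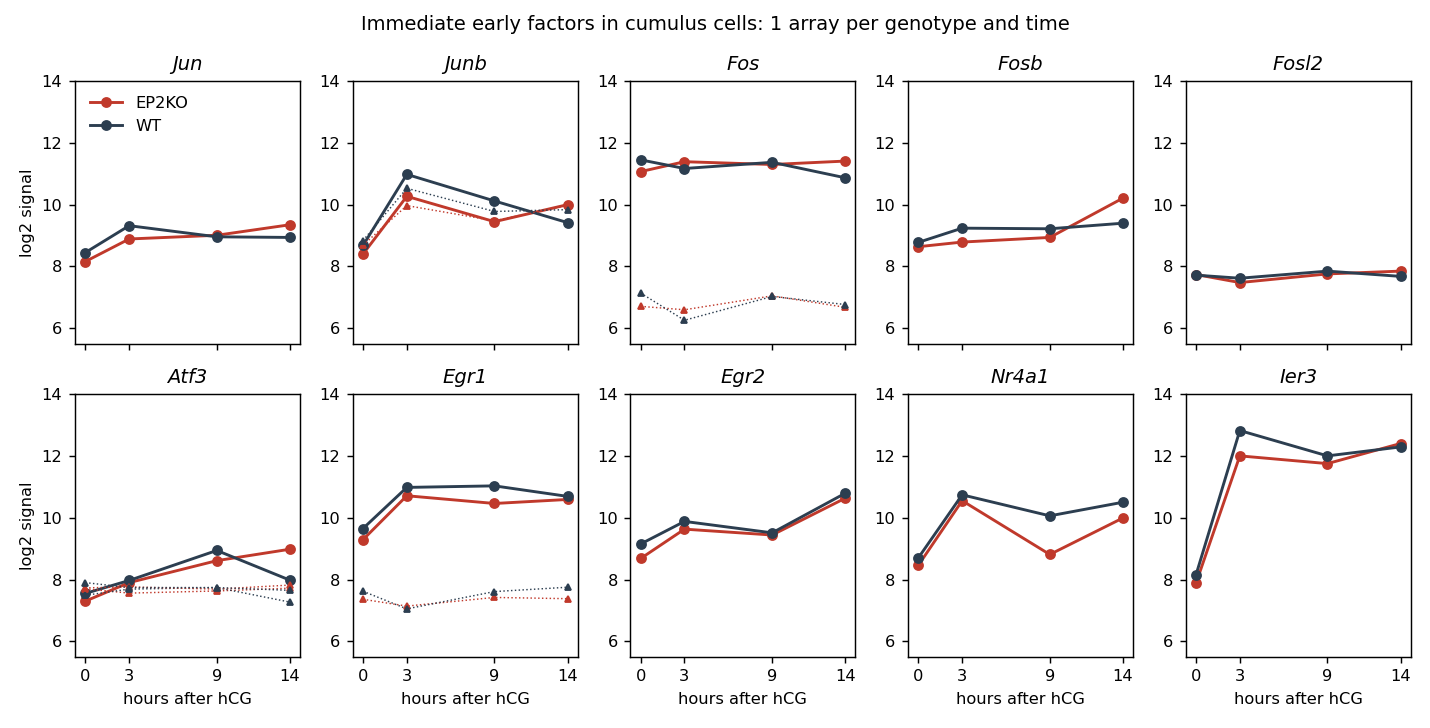
Log2 signal of the 10 genes (vertical axis) against hours after hCG (horizontal axis), with EP2KO arrays in red and WT arrays in dark, 1 array per point. Solid lines are the probe set with the highest mean and dotted lines the gene's other probe sets. Ier3 lies near 8 at 0 h and near 12 from 3 h on in both genotypes, while the main Fos line stays near 11.

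Ier3 showed the largest change of the members. It read 7.88, 12, 11.75 and 12.40 at 0, 3, 9 and 14 h in EP2KO cells and 8.15, 12.82, 12 and 12.29 in WT cells. All 6 arrays after hCG lay far above the 2 arrays at 0 h, with no overlap. The change from 0 h was 4.40 ± 0.18 (SE) at 3 h, 3.86 at 9 h and 4.33 at 14 h (limma adjusted p = 5.1e-07, 7.91e-07 and 1.78e-07). In linear terms the signal at 3 h was 21.0-fold that at 0 h. Between the later times the differences were −0.53 for 9 h against 3 h (adjusted p = 0.0668) and 0.47 for 14 h against 9 h (adjusted p = 0.109).

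Egr1, which LH induces in granulosa cells, rose by 3 h and stayed up. Its probe set 98579_at read 9.29, 10.71, 10.46 and 10.59 in EP2KO cells and 9.65, 10.98, 11.03 and 10.69 in WT cells. Every array after hCG was above both arrays at 0 h. The changes from 0 h were 1.38 ± 0.13 at 3 h, 1.28 at 9 h and 1.17 at 14 h (limma adjusted p = 0.000103, 0.000141 and 0.000104). The second Egr1 probe set, 161802_i_at, read 7.36, 7.14, 7.42 and 7.38 in EP2KO cells and 7.62, 7.05, 7.61 and 7.75 in WT cells, and did not show the rise. At 3 h it was lower by 0.39 (adjusted p = 0.0375), a call that was lost when each array was centred on its median (−0.32, adjusted p = 0.0835) and without either 0 h array, either 9 h array or the WT 3 h array (−0.21, adjusted p = 0.334). The suffix i marks a probe set with fewer unique probes than usual.

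Jun, the main partner of FOS proteins in AP-1, moved less. It read 8.16, 8.89, 9.01 and 9.35 in EP2KO cells and 8.45, 9.32, 8.96 and 8.94 in WT cells, so all later arrays were above those at 0 h. The changes were 0.80 ± 0.18 at 3 h, 0.68 at 9 h and 0.84 at 14 h (limma adjusted p = 0.00691, 0.0227 and 0.00559). The 3 h call was lost without the WT 3 h array (0.56, adjusted p = 0.0975) or the EP2KO 0 h array (0.65, adjusted p = 0.066). The 14 h call was lost without the EP2KO 0 h array (0.69, adjusted p = 0.079) or the EP2KO 14 h array (0.52, adjusted p = 0.0668). At 9 h it was lost without either 0 h array or either 9 h array.

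Junb and Nr4a1 were highest on the mean of both genotypes at 3 h and lower at 9 h. JUNB is a JUN protein that is often a weaker activator than JUN. Its probe set 102362_i_at read 8.40, 10.27, 9.45 and 10.00 in EP2KO cells and 8.68, 10.98, 10.12 and 9.42 in WT cells, and 102363_r_at read 8.69, 9.97, 9.48 and 9.98 in EP2KO cells and 8.84, 10.53, 9.78 and 9.84 in WT cells. Both later arrays were above both 0 h arrays at each time. The change at 3 h was 2.09 ± 0.25 for 102362_i_at and 1.49 ± 0.16 for 102363_r_at (limma adjusted p = 0.000314 and 0.000152), and at 9 h it was 1.25 and 0.87 (adjusted p = 0.00623 and 0.00338). At 14 h it was 1.17 and 1.15 (adjusted p = 0.00581 and 0.000345). The 9 h calls rested on the single 0 h arrays: without the WT 0 h array the adjusted p was 0.0747 for 102362_i_at and 0.0528 for 102363_r_at, and without the EP2KO 0 h array it was 0.0566 for 102362_i_at. At 14 h the call of 102362_i_at was lost without the EP2KO 0 h array (adjusted p = 0.0583) or the WT 0 h array (adjusted p = 0.0632), and its change was 0.60 without the EP2KO 14 h array (adjusted p = 0.0369).

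Between 3 and 9 h Junb fell by 0.84 on 102362_i_at and by 0.62 on 102363_r_at (limma adjusted p = 0.0435 and 0.0221). Junb signal at 9 h was still above that at 0 h on both probe sets. The call of 102362_i_at was lost with arrays centred on their medians (adjusted p = 0.0523) and without a genotype term (limma adjusted p = 0.0547). After quantile normalization the calls of both probe sets were lost. The differences were then −0.63 on 102362_i_at and −0.46 on 102363_r_at (limma adjusted p = 0.136 and 0.0766). Without the WT 3 h array the difference was −0.55 on 102362_i_at (adjusted p = 0.383) and −0.39 on 102363_r_at (adjusted p = 0.256). The call of 102362_i_at was also lost without either 0 h or either 9 h array, and that of 102363_r_at without either 9 h array.

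Nr4a1 read 8.46, 10.55, 8.81 and 9.99 in EP2KO cells and 8.70, 10.74, 10.06 and 10.50 in WT cells. The genotypes lay close to each other at 0 and 3 h and apart at 9 h, where the EP2KO array was close to the 0 h level and the WT array was not. The change from 0 h was 2.07 ± 0.22 at 3 h, 0.86 at 9 h and 1.67 at 14 h (limma adjusted p = 0.000146, 0.0185 and 0.000248). The 9 h call rests on the WT 9 h array, without which it was 0.39 (adjusted p = 0.238), while without the EP2KO 9 h array it was 1.32. It was also lost without the WT 0 h array (adjusted p = 0.214). The difference between 9 h and 3 h was −1.21 (adjusted p = 0.00456), and −0.74 without the EP2KO 9 h array (adjusted p = 0.0227). At 14 h it was 0.81 above 9 h (adjusted p = 0.0238), a call that was lost without the EP2KO 9 h array (0.34, adjusted p = 0.379) and without either 14 h array (adjusted p = 0.102 and 0.081 without the EP2KO and the WT one). Without the WT 9 h array the difference was 1.28.

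Against 3 h, 2 of the 15 member probe sets were higher at 9 h (7.59% of all probe sets) and 3 were lower (11.8%). The lower ones are the 2 of Junb and Nr4a1. Against 9 h, 2 were higher at 14 h, Egr2 and Nr4a1, where 10% of all probe sets were, and none was lower, where 10.1% were. The count of 5 changes between 9 and 3 h was 3 without either 0 h array, 2 without the EP2KO 9 h array and 1 without the WT 3 h or the WT 9 h array. The count of 2 between 14 and 9 h was 1 if the EP2KO 9 h array was dropped but 4 if either 3 h array was.

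**Figure D2:**
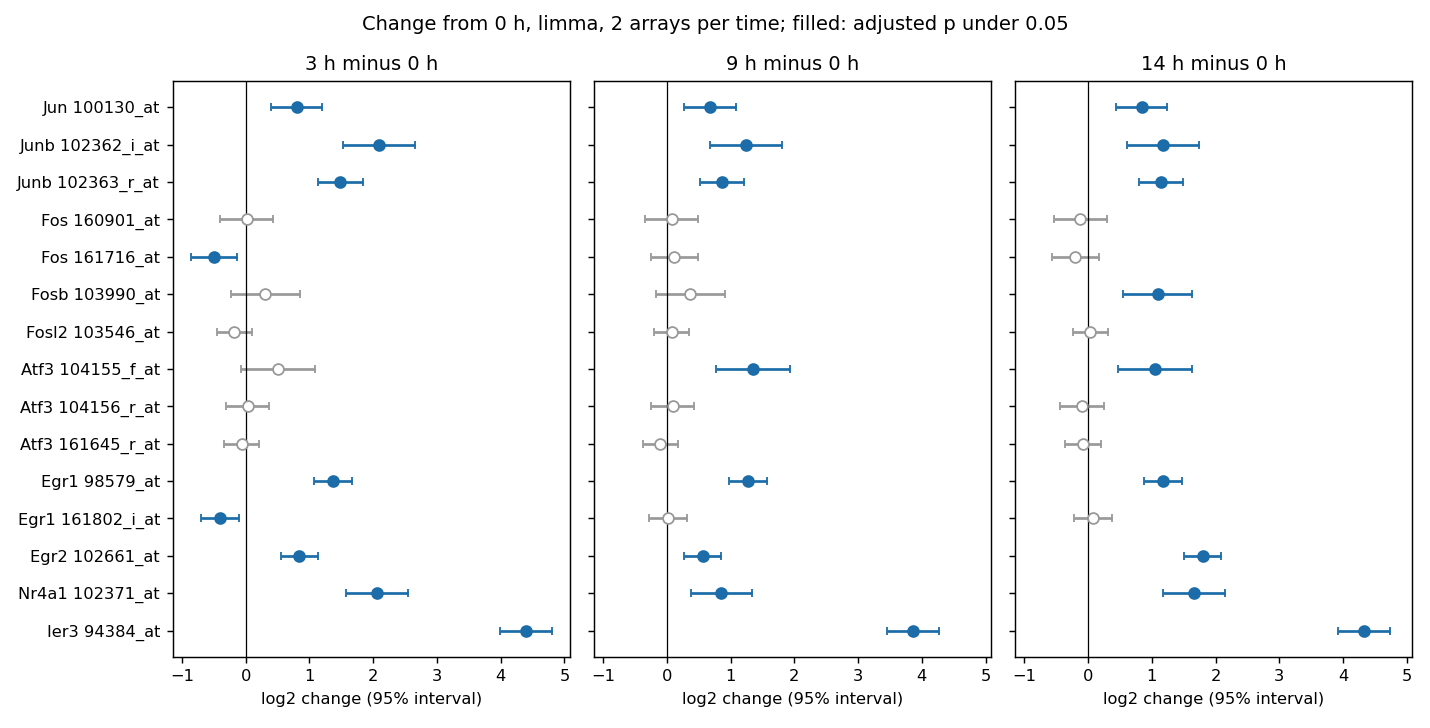
Log2 change from 0 h (horizontal axis) for each member probe set at 3, 9 and 14 h, with the 95% interval of the limma fit as bars. Filled points have an adjusted p under 0.05. Ier3 stands near 4 at all 3 times, and Fos 160901_at and Fosl2 lie near 0.

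Egr2, Fosb and Atf3 had their highest mean values at 9 or 14 h. Egr2, an EGR factor known from nerve and immune cells, read 8.68, 9.63, 9.44 and 10.63 in EP2KO cells and 9.15, 9.88, 9.51 and 10.79 in WT cells. The 14 h arrays of both genotypes were its highest and the 0 h arrays its lowest. The change from 0 h was 0.84 ± 0.13 at 3 h, 0.56 at 9 h and 1.80 at 14 h (limma adjusted p = 0.00103, 0.0117 and 4.42e-06). The signal at 14 h was 1.24 ± 0.13 above that at 9 h (adjusted p = 9.9e-05). The 9 h call was lost without the EP2KO 0 h array (0.41, adjusted p = 0.0975) or the EP2KO 9 h array (0.45, adjusted p = 0.168).

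Fosb, a FOS protein that can also be made in a shortened form, read 8.64, 8.79, 8.94 and 10.21 in EP2KO cells and 8.78, 9.24, 9.22 and 9.40 in WT cells. Its 14 h EP2KO array stands apart from the other 7, which span 8.64 to 9.40. The changes at 3 h and 9 h were 0.31 and 0.37 (limma adjusted p = 0.326 and 0.305), and at 14 h the gene was 1.10 ± 0.24 above 0 h (adjusted p = 0.00644). Without the EP2KO 14 h array that change was 0.55 (adjusted p = 0.0388), and without the WT 14 h array it was 1.65. The call was lost without the WT 0 h array (1.18, adjusted p = 0.0511) or the EP2KO 0 h array (1.01, adjusted p = 0.0745).

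ATF3 is a stress-induced repressor that can also pair with JUN proteins. Its probe set 104155_f_at read 7.30, 7.90, 8.61 and 8.98 in EP2KO cells and 7.55, 7.97, 8.94 and 7.98 in WT cells. In both genotypes each time up to 9 h read above the one before it, and at 14 h the EP2KO array was higher still while the WT array was back near its 3 h value. The change from 0 h was 0.51 at 3 h (limma adjusted p = 0.137), 1.35 ± 0.26 at 9 h (adjusted p = 0.00461) and 1.06 at 14 h (adjusted p = 0.0118). The 3 h change passed with only the 4 arrays of 3 and 0 h in the fit (adjusted p = 0.0474), and when both 14 h arrays were left out, an alternative chosen after seeing the data (adjusted p = 0.00936). The 9 h call was lost without the EP2KO 0 h array (1.12, adjusted p = 0.0687). At 14 h it was lost without the EP2KO 14 h array (0.45, adjusted p = 0.0766) or the EP2KO 0 h array (0.83, adjusted p = 0.138), and was 1.66 without the WT 14 h array.

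The other Atf3 probe sets did not follow 104155_f_at. The signal of 104156_r_at lay between 7.27 and 7.74 and that of 161645_r_at between 7.65 and 7.90 over the 8 arrays. Against 3 h, 104155_f_at was 0.84 higher at 9 h (limma adjusted p = 0.0477), a call that was lost with arrays centred on their medians (adjusted p = 0.0735) and without either 0 h array, either 3 h array or the WT 9 h array (0.56, adjusted p = 0.385). The suffix f marks a probe set whose probes can also match related sequences.

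Fos and Fosl2 did not pass for their main probe sets. Fos, the founding AP-1 member, read 11.07, 11.39, 11.30 and 11.41 on 160901_at in EP2KO cells and 11.45, 11.17, 11.37 and 10.87 in WT cells. These values lie well above the array medians at all times, before hCG included, and the arrays of different times overlap. The change at 3 h was 0.02, with a 95% interval of −0.396 to 0.436, and at 14 h −0.12 (limma adjusted p = 0.941 and 0.684). The second Fos probe set, 161716_at, read 6.71, 6.60, 7.05 and 6.68 in EP2KO cells and 7.14, 6.26, 7.03 and 6.77 in WT cells. At 3 h its difference from 0 h was −0.49 (adjusted p = 0.0348), a call that was lost on median centring (−0.42, adjusted p = 0.0702) and without the WT 3 h array (−0.24, adjusted p = 0.353) or the WT 0 h array (−0.23, adjusted p = 0.369). With the EP2KO array of 3 h or of 0 h left out instead, it was −0.75 or −0.76. At 9 h it was 0.61 above 3 h (adjusted p = 0.028), a call that was lost without the WT 3 h array (0.36, adjusted p = 0.311) or either 9 h array. Fosl2, a FOS relative that tends to be made later and for longer, read 7.74, 7.48, 7.76 and 7.85 in EP2KO cells and 7.72, 7.62, 7.85 and 7.68 in WT cells, all close to the array medians. Its changes from 0 h were −0.18, 0.08 and 0.04 at 3, 9 and 14 h, with a 95% interval of −0.453 to 0.093 at 3 h and −0.238 to 0.308 at 14 h.

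The EP2KO and WT arrays were compared over the 4 times in the same fit. None of the 15 member probe sets passed, and none of the 12422 did (0%). At an unadjusted p under 0.05 there were 4 of 15 members against 5.17% of all probe sets. Nr4a1 was lower in EP2KO cells at all 4 times, on average by −0.55 ± 0.15 (limma adjusted p = 0.87). Egr1 98579_at was lower at all 4 times (−0.32 ± 0.09, limma adjusted p = 0.897), as was Egr2 (−0.24, adjusted p = 0.939). Ier3 differed by −0.31 and was lower in EP2KO cells at 0, 3 and 9 h (limma adjusted p = 0.948). These are single-array differences in 4 pairs that did not pass the correction. The targeted gene itself, Ptger2 (98768_at), read 4.57, 4.24, 4.69 and 4.51 in EP2KO cells and 4.95, 5.97, 5.37 and 5.33 in WT cells, lower in EP2KO at every time, with most values below or near the 10th percentile of an array (5.12 to 5.38).

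At single times there is 1 array a group, and no test was made of the difference at 1 time alone. The differences EP2KO minus WT of Nr4a1 were −0.24, −0.19, −1.25 and −0.51 at 0, 3, 9 and 14 h, so that of 9 h is several times the size of the others before ovulation. It is the only member difference of at least 1 log2 unit at 9 h (1 of 15, against 0.129% of all probe sets). At 14 h the only such member was Atf3 104155_f_at, at 1.0 (1 of 15, against 0.217%). At 0 h and 3 h no member reached 1, against 0.0403% and 0.467% of all. The largest member difference at 3 h was that of Ier3, at −0.82. On the same pair of 9 h arrays as the Nr4a1 gap, Hba-a1 and Hbb-b2, which encode globin chains, stood further apart. They read 10.94 and 7.98 in EP2KO cells and 13.39 and 10.34 in WT cells, differences of −2.45 and −2.36. The other erythroid markers, Alas2 and Slc4a1, differed by −0.34 and −0.03. The part of the globin genes in the Nr4a1 gap was not tested. Differences of 95% of all probe sets lay within 0.43, 0.46, 0.40 and 0.45 of 0 at 0, 3, 9 and 14 h.

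**Figure D3:**
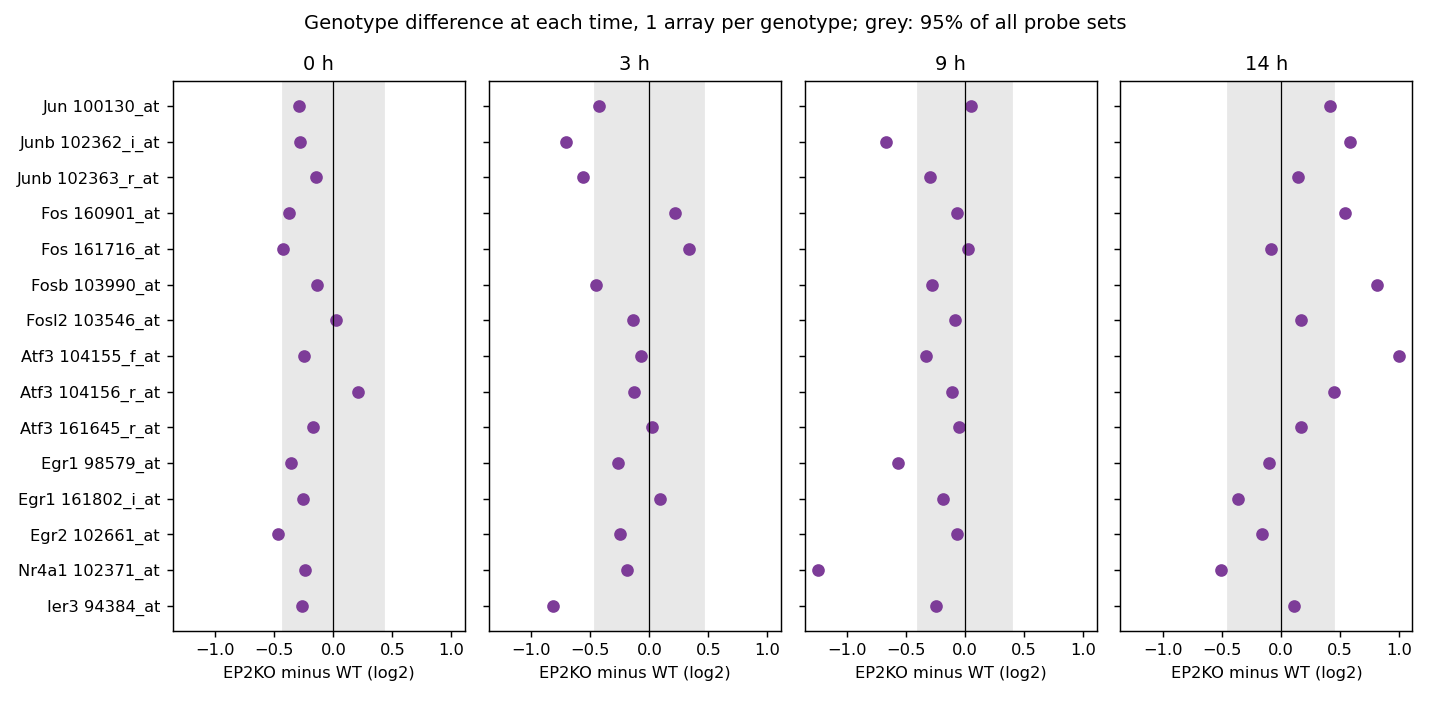
EP2KO minus WT log2 difference (horizontal axis) at 0, 3, 9 and 14 h for each member probe set (vertical axis), 1 array each. The grey band holds 95% of all probe sets. Left of the band lie Egr2 at 0 h (−0.47), Ier3 (−0.82) and Junb (−0.71 and −0.56) at 3 h, Nr4a1, Junb 102362_i_at and Egr1 98579_at at 9 h, and Nr4a1 at 14 h (−0.51). Right of it at 14 h lie Atf3 104155_f_at, Fosb, Junb 102362_i_at and Fos 160901_at.

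The sign of the difference varied with time. Above 0 lay 2, 4, 2 and 10 of the 15 member probe sets at 0, 3, 9 and 14 h, where 45.2%, 53.5%, 45.2% and 53.1% of all probe sets did. At 14 h Atf3 104155_f_at was 1.0 higher in EP2KO cells, Fosb 0.81, Junb 102362_i_at 0.58, Fos 160901_at 0.54 and Jun 0.41, while at 3 h Fosb, Junb, Jun and Atf3 were lower in EP2KO cells (−0.45, −0.71, −0.43 and −0.07) and Fos 160901_at was 0.22 higher. Egr1, Egr2 and Nr4a1 stayed lower at 14 h (−0.10, −0.16 and −0.51). The departure of the 14 h difference from the mean of the earlier ones was fitted with an interaction term. None of the 15 passed, where 0.0805% of all probe sets did, or 10 of 12422, and none did when any 1 array of 0, 3 or 9 h was left out. At an unadjusted p under 0.05 there were 5 of 15 against 6.96%. The departure was 1.22 ± 0.20 for Atf3 104155_f_at (limma adjusted p = 0.096), 1.10 ± 0.21 for Fosb (adjusted p = 0.166) and 1.13 for Junb 102362_i_at (adjusted p = 0.213). Jun and Fos 160901_at departed by 0.63 and 0.62 (adjusted p = 0.595 and 0.652).

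Markers of other cells differed between the arrays, at 3 and 9 h as well as at 14 h. Over all probe sets 17.4%, 10.9% and 13.5% were higher at 3, 9 and 14 h than at 0 h. The shares lower were 25.4%, 12.1% and 15.2%. Of 25 leukocyte markers 9 were higher at 14 h than at 0 h and none lower, led by S100a8 (2.0) and Cd53 (1.94). Their mean log2 signal was 7.94 in EP2KO and 7.58 in WT cells at 14 h, and 6.99 to 7.31 on the earlier arrays. Ptprc, Adgre1 and Itgam, which define leukocytes and macrophages, stayed below the array median on all 8 arrays, and 10 of the 25 markers did so in all. Of 13 oviduct epithelium markers 4 were higher at 14 h than at 0 h, with the oviduct glycoprotein Ovgp1 at 3.65, and Foxj1 was lower (−0.41). On all 8 arrays 6 of the 13 lay below the array median. Krt18 was 1.76 higher in the 14 h departure (limma adjusted p = 0.0357), a call that was lost, like all 10 departures, with arrays centred on their medians or when any 1 array of 0, 3 or 9 h was left out. The oviduct markers averaged 8.07 in EP2KO and 7.85 in WT cells at 14 h. The Gapdh 3' minus 5' control difference, which grows as RNA or cRNA is shorter, was 2.82 in EP2KO and 2.87 in WT cells at 14 h and 0.80 to 1.86 earlier. That of Actb was 1.37 in EP2KO and 1.61 in WT cells at 14 h and 0.69 to 1.54 earlier, so it set the 14 h arrays apart less. The part of these markers and controls in the 14 h values of Fosb, Atf3, Junb and Fos was not tested. Of 12 endothelial and erythroid markers 2 were higher and 3 lower at 3 h than at 0 h, 4 higher and 1 lower at 9 h, and 2 higher and 1 lower at 14 h. The 3 h counts lie near the shares of all probe sets. At 9 h the higher ones were Hba-a1 (2.17), Hbb-b2 (1.70), the endothelial cadherin Cdh5 (1.52) and Eng (0.50). Their mean log2 signal at 9 h was 7.97 in EP2KO and 8.49 in WT cells. Of 12 oocyte markers and 14 theca and stroma markers none was higher at 3, 9 or 14 h than at 0 h. Lower were 3, 2 and 1 of the oocyte markers and 5, 1 and 0 of the theca and stroma markers. The oocyte markers averaged 7.17 in EP2KO and 6.81 in WT cells at 3 h, and 7.03 and 7.23 at 0 h. On the same 3 h pair Hba-a1 and Hbb-b2 differed by −1.21 and −0.9, and Alas2 and Slc4a1 by −0.34 and 0.01. The part of these markers in the 3 h differences of Ier3 and Junb was not tested. Of 12 cumulus and granulosa markers none lay below the array median on all arrays. Of these, 8 were lower at 9 h than at 0 h with 3 higher, and 7 were lower at 14 h with 2 higher, with median changes of −0.80 and −1.14. Inhbb, an inhibin and activin subunit, was at −5.42 and the oestrogen receptor Esr2 at −2.71 at 14 h. In bulk RNA fewer cells of a type and less RNA per cell cannot be told apart.

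Other genes of the same kind were taken from lists, to place the members. The shares of all probe sets higher than at 0 h were 17.4%, 10.9% and 13.5% at 3, 9 and 14 h. Those lower were 25.4%, 12.1% and 15.2%. They stand beside every list count against 0 h here and below. Of 38 other immediate early genes 22 were higher and 3 lower at 3 h than at 0 h, 22 higher and 1 lower at 9 h, and 24 higher and 1 lower at 14 h. Their median change was 0.87, 0.81 and 0.91. Prostaglandin synthase Ptgs2 rose by 6.99 ± 0.24 at 3 h (limma adjusted p = 1.33e-07), Ier2 by 2.94, 2.76 and 1.71 at 3, 9 and 14 h, and the MAP kinase phosphatase Dusp6 by 2.80 at 3 h. Plk2 rose by 2.28 at 3 h and differed from 0 h by −0.02 at 9 h. Myc rose by 1.11 at 3 h, differed by 0.06 at 9 h and was 1.78 above 0 h at 14 h. Dusp1 and Btg2 were, like Egr2, highest at 14 h, by 2.02 and 1.97 above 0 h. Ccn2 was lower at 9 h (−1.0) and Gadd45g at 14 h (−1.09).

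**Figure D4:**
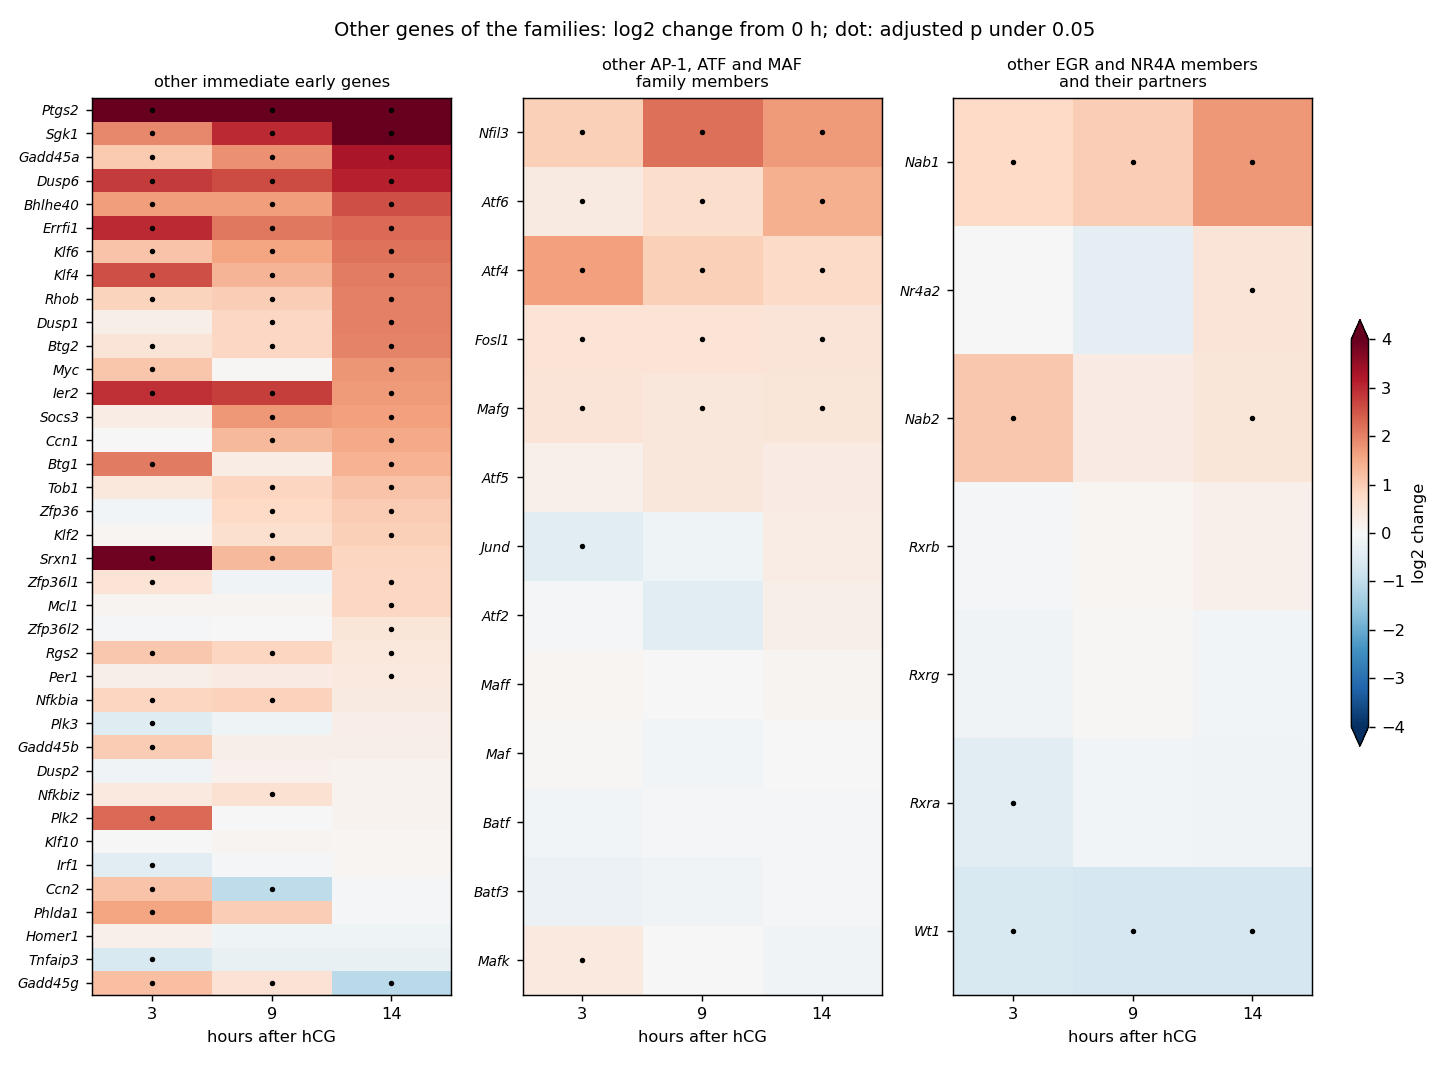
Log2 change from 0 h of genes near the members (rows), at 3, 9 and 14 h (columns), for 38 other immediate early genes, 13 other AP-1, ATF and MAF genes and 7 other EGR and NR4A genes and partners. Dots mark an adjusted p under 0.05, and colours stop at 4 in either direction, so that Ptgs2 is deeper than shown.

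Among 13 other AP-1, ATF and MAF genes 6 were higher and 1 lower at 3 h, and 5 were higher at both 9 and 14 h with none lower. Atf4, a stress factor, rose by 1.65 at 3 h and was still 0.94 and 0.75 above 0 h at 9 and 14 h. Nfil3 peaked at 9 h (0.96, 2.19 and 1.70 at 3, 9 and 14 h), Atf6 was highest at 14 h (1.42), and Fosl1, the FOS relative next to Fosl2, was 0.54, 0.55 and 0.50 above 0 h. Jund differed by −0.42 at 3 h. Of 7 other EGR and NR4A genes and their partners 2 were higher and 2 lower at 3 h. At 9 h 1 was higher and 1 lower, and at 14 h 3 were higher and 1 lower. Among the higher ones were Nab1 and Nab2, co-repressors of EGR factors. Nab1 went up by 0.79, 0.98 and 1.73 at 3, 9 and 14 h and Nab2 by 1.08 and 0.48 at 3 and 14 h, while Wt1, a related zinc finger factor, was lower at all 3 times (−0.61, −0.66 and −0.68). Nr4a2, the other NR4A receptor measured, read 6.46, 6.11, 6.05 and 6.92 at 0, 3, 9 and 14 h in EP2KO cells. In WT cells it read 6.48, 6.82, 6.11 and 7.06. The signals of Nr4a2, Wt1 and Fosl1 lay below the array median on all 8 arrays. Of 22 upstream kinases and factors only Crem was higher at 3 h, by 3.76 ± 0.27 (limma adjusted p = 2.28e-05), and 8 were lower, led by Map3k1 (−1.35).

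Of 24 widely cited targets of these factors 8 were higher and 5 lower at 3 h than at 0 h, 8 higher and 1 lower at 9 h, and 9 higher and none lower at 14 h, with medians of 0.01, 0.24 and 0.18 against −0.14, −0.08 and −0.06 over all probe sets. On all 8 arrays 9 of the 24 lay below the array median: Plau, Mmp2, Mmp3, Mmp13, Cd44, Il6, Hsd3b2, Vim and Itga5. Tissue factor F3 rose by 4.43 at 3 h, 0.97 at 9 h and 2.03 at 14 h. The cholesterol carrier Star rose by 4.11, 3.45 and 2.13. The protease inhibitor Timp1 climbed by 0.80, 1.96 and 2.80, and the membrane protease Mmp14 was −1.01 at 3 h and 0.62 and 0.95 above 0 h later. None of these genes, of the other immediate early genes or of the family lists passed in the genotype comparison or in the 14 h departure.

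Genes with patterns most like each member over the 8 arrays were taken from 1426 probe sets with an SD of at least 0.5. The arrays share times, so high correlations are common and carry no p. Ier3 was most like Tnfaip6 (Pearson r = 0.988), an expansion protein of the cumulus matrix, then Sod1 and Dusp6. Junb was most like the EGF-like ligand Ereg (0.981), and Egr1 like Man2a1 (0.973), Tnfaip6 and Ptgs2. Egr2 was most like Ppic (0.982) and Atp13a3, and Nr4a1 like Hs3st1 (0.931), followed by Herc4 (0.929) and a Junb probe set (0.914). Jun was most like Sod1 (0.940) and Ier3 (0.931). Fosb was most like Rhob (0.939), and its list holds C1qb and Krt18, while that of Atf3 begins with Trbv1 (0.911) and S100a10 (0.908). Fos, with r = 0.578 to Mtm1 at most, had no close match.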

How the data were processed

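The deposited table holds 8 Affymetrix MG_U74Av2 arrays as log2 signals that the authors made with RMA (robust multi-array average), per the submitters' processing notes. The sources used here give no version of it. Per the labels, 100 ng of total RNA went through 2 rounds of amplification. Values were used as deposited, with 66 Affymetrix controls left out. Symbols come from the platform annotation: 10833 of the tested probe sets have 1 symbol, 396 several and 1193 none. Tests used limma 3.58.1 in R 4.3.3 (lmFit and eBayes, two-sided, adjusted over 12422 probe sets), with 3 residual degrees of freedom, or 2 for the 14 h departure. P-values measure only the spread between these single arrays. With a single array per genotype and time, this spread is the variation of the EP2KO minus WT difference between times. It may be technical or a real genotype difference that changes with time, and the fit cannot tell these apart. Time changes were thus judged with the EP2KO and WT arrays of a time as replicates. The genotype comparison was judged against the variation of its own difference, and the departure against that variation among the earlier times. On simulated data of 12422 genes the 3 h contrast recovered 76% of changes of 1 log2 unit. Promoters come from RefSeq. The named genes are all member probe sets, genes of the lists, Ptger2, and the 5 genes most alike per member. Genes of the lists use the probe set with the highest mean. The members and lists were chosen with earlier results of these data known. The most alike pair of arrays had 2.54% of values equal. Protein sequences were not used here.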

Additional observations from a re-analysis of the deposited data

Results flagged for a closer look

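The values here are the EP2KO change minus the WT change between 2 times, given where the single EP2KO and WT arrays moved in opposite directions. With 1 array per genotype and time, none of these differences was tested. For Fos 160901_at the difference was 0.60 at 3 h, 0.31 at 9 h and 0.92 at 14 h against 0 h, −0.29 for 9 h against 3 h and 0.61 for 14 h against 9 h. For Fos 161716_at it was 0.45 at 9 h against 0 h.

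Between 9 and 14 h the difference was 1.25 for Junb 102362_i_at and 1.33 for Atf3 104155_f_at, where EP2KO cells went up and WT cells went down. Over the same step it was 0.36 for Jun, 0.26 for Fosl2, 0.47 for Egr1 98579_at and −0.18 for Egr1 161802_i_at. Between 3 and 9 h it was 0.48 for Jun, 0.17 for Fosb and −0.30 for Egr1 98579_at.

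The probe sets near or below the array medians also appear. Atf3 104156_r_at had −0.34, −0.32 and 0.24 at 3, 9 and 14 h against 0 h and 0.56 for 14 h against 9 h, and Atf3 161645_r_at had 0.19 and 0.34 at 3 and 14 h against 0 h and 0.22 for 14 h against 9 h. Egr1 161802_i_at had 0.07 at 9 h against 0 h, and Fosl2 had 0.15 at 14 h against 0 h.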

How the results depend on the processing

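Arrays could not be paired by animal because the labels carry no replicate number that links animals. The genotype comparison sets the 2 arrays of each time against each other. No called member change turned its direction in any alternative run. Of the single member results under the scaling, filter, prior, term and sample alternatives, 597 kept their side of the threshold, 18 lost and 8 gained a call. When 1 array was left out, 746 kept it, 48 lost and 16 gained one, with the lone array of that time assumed to vary like the others. For 9 h against 3 h, 5 member probe sets were called, 3 with each array centred on its median and 1 after quantile normalization. For 14 h against 9 h, 2 were called, and 1 without a genotype term or with only the 4 arrays compared. Over all probe sets the 5313 calls at 3 h became 3482 with the lowest 40% left out and 2888 with only 4 arrays, and with only 4 arrays there were 1257 calls for 9 h against 3 h (2412 with all arrays) and 699 for 14 h against 9 h (2496 with all). Centring changed the split at 3 h: 2161 higher and 3152 lower as deposited, 2394 higher and 2111 lower when centred. Genotype calls were 1 of all without both 14 h arrays, chosen after seeing the data, against 0, and the 10 departures became 0 with centring or with the lowest 40% left out.

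Leaving out single arrays gave 6 to 10 member calls and 1897 to 5471 in all at 3 h, 4 to 8 and 1225 to 3036 at 9 h, 5 to 9 and 2289 to 3809 at 14 h, 1 to 7 and 489 to 2605 for 9 h against 3 h, and 1 to 4 and 1286 to 2668 for 14 h against 9 h. The genotype comparison gave 0 member calls and 0 to 1 in all, and the departure 0 and 0. The departure could not be fitted without either 14 h array. The causes were not tested. With 1 array per genotype and time, precision is limited by their number, and low signals may lie near background.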
